A study of Mus musculus with 4 samples.

Results

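The genes described here encode the urokinase-type and tissue-type plasminogen activators (Plau and Plat), the urokinase receptor (Plaur) and a pair of serpins that inhibit the activators (Serpine2 and Serpinb2). They were chosen by name, with earlier results of these data known. Each was read from the probe set that the platform annotation gives that symbol alone. Of the 5 genes 4 were measured in this way, out of 22180 named genes in all, and Serpine2 was not analysed here. Each of the 4 had 1 such probe set. Plau, Plat and Plaur counted as expressed, meaning that the highest of the 4 array values reached 5.98 on the log2 scale, the 40th percentile of all gene values. Serpinb2 did not.

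Urokinase and tissue plasminogen activator are serine proteases that cut the inactive precursor plasminogen into plasmin, a broad protease that dissolves fibrin and degrades matrix proteins. Plasmin also activates several matrix metalloproteinase precursors. The urokinase receptor holds urokinase at the cell surface, where plasminogen is bound as well. Serpins inhibit by acting as a bait: the protease cuts the serpin and is trapped. Serpinb2 encodes plasminogen activator inhibitor type 2 and Serpine2 encodes protease nexin. In colon cancer the system is known for its part in invasion.

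The cells were CT26, a mouse colon carcinoma line, in 4 cultures with 1 array each. One culture had received the solvent DMSO for 24 h and another 5 µM Senexin B for 24 h. The compound inhibits CDK8 and its paralog CDK19, which belong to the kinase module of the Mediator complex. The other cultures were a CT26 line carrying pLKO.1, the vector for short hairpin RNAs, and a line named shCDK8. The labels give no drug or solvent for these lines, and whether each is a clone or a pool is not given in the sources used here. The series design compares Senexin B with DMSO and shCDK8 with pLKO.1, so the comparisons share no array. The precision is limited by the number of arrays: with a single one in each group no replicate error, test or p-value can be given. Each difference below is one between 2 arrays. RNA per culture was measured, so fewer cells making a transcript and less transcript per cell cannot be told apart. The difference between the control arrays, pLKO.1 minus DMSO, is given beside the comparisons. It is not a replicate error, since the controls differ in vector and solvent, and it shares an array with each comparison.

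The 4 arrays were alike in their medians (5.99 to 6.04) and Pearson's r across probe sets was 0.982 to 0.990. Cdk8 stood at 9.07 in shCDK8 and at 10.58 to 10.79 on the other arrays. Of 9 colon epithelium markers 6 were at or above the expression limit on each array, while Epcam, Krt19 and Vil1 were under it on all 4. Krt20 stood at 8.72 in DMSO, 8.62 in Senexin B, 8.03 in pLKO.1 and 6.59 in shCDK8. It was at -1.44 for shCDK8 minus pLKO.1 and at -0.69 for pLKO.1 minus DMSO. The other 5 expressed colon markers were above 0 for shCDK8 minus pLKO.1, beside 50.8% of expressed genes. The median of all 6 was 0.11. Of 7 macrophage and leukocyte markers 2 were above the expression limit on each array, Cd68 and C1qa. Ptprc, Csf1r, Adgre1, Itgam and Lyz2 were under it on all 4. Of 5 endothelium markers 4 were above it with Senexin B and 2 on each other array. Of 6 fibroblast markers 5 or 6 were above it, and their mean level was 8.43 in DMSO, 9.05 in Senexin B, 8.65 in pLKO.1 and 8.39 in shCDK8. Within that list Dcn was at 2.29, Pdgfra at 1.24 and Fap at -0.46 for Senexin B minus DMSO, and at -0.82, 0.39 and -0.94 for shCDK8 minus pLKO.1. Fap was above the limit in pLKO.1 only, and with values raised to the limit its differences were 0 and -0.43. Col1a1, Col1a2 and Thy1 were at 0.23, 0.21 and 0.21 for Senexin B minus DMSO. For shCDK8 minus pLKO.1 they were at -0.16, -0.34 and 0.30. The part of these markers in the values below was not tested.

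RefSeq sequence on GRCm38.p6 is shown for Plaur and for Serpinb2. Among Plau, Plat, Plaur and Serpinb2, Plaur had the largest difference after Senexin B, and Serpinb2 was the gene not expressed. Each run is the 250 bases before an annotated transcription start, 5′ to 3′ on the plus strand, at chr7:24462233-24462482 for Plaur and chr1:107511173-107511422 for Serpinb2. Capitals mark matches to the AP-1 element (TGACTCA or TGAGTCA, which are one motif read on either strand), the GC box (GGGCGG or CCGCCC) and the TATA box (TATAAA or TTTATA). The matches to different motifs do not overlap in these runs.
Plaur: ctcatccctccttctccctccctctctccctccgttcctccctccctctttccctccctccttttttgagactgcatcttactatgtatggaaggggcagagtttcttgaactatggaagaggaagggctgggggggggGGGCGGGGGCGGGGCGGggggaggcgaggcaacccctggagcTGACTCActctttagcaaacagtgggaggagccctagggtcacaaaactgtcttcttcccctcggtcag
Serpinb2: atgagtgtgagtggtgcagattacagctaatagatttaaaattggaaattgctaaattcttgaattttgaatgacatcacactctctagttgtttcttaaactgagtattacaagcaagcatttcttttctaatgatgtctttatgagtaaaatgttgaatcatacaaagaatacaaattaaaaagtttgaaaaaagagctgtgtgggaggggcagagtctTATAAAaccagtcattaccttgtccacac
The Plaur run held 1 AP-1 match, starting at base -69 from the start, and 3 GC boxes, at -111, -105 and -100, of which the last pair overlap, with no TATA box. The Serpinb2 run held 1 TATA box at -29 and neither of the others. A further annotated Serpinb2 start lies downstream, at the end of chr1:107511260-107511509, and from it the same TATA box is at -116. In 32851 RefSeq promoter windows of the same length the AP-1 match occurred in 4.46%, the GC box in 32.7% and the TATA box in 12.4%. G and C made up 59.6% of the Plaur run and 32.4% of the Serpinb2 run, against a median of 52.4%. These matches describe the letters only.

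Both activators were lowest with Senexin B and highest in the shCDK8 line. Plau, the urokinase gene, had log2 levels of 7.37 in DMSO, 7.16 in Senexin B, 7.45 in pLKO.1 and 8.12 in shCDK8. The shCDK8 array stood above the next highest by 0.67, while the other arrays lay within 0.29 of each other. Plau was thus 1.59-fold higher in shCDK8 than in pLKO.1, a log2 difference of 0.67. Of 14272 expressed genes 2.38% were at least as far apart in that comparison, in either direction. With Senexin B it was 1.16-fold lower than with DMSO, a log2 difference of -0.21, and 36.9% of expressed genes were at least as far apart. The control arrays differed by 0.09 for this gene.

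Plat, the tissue plasminogen activator gene, had log2 levels of 7.87 in DMSO, 7.43 in Senexin B, 8.04 in pLKO.1 and 8.44 in shCDK8. The Senexin B array was the low one and the shCDK8 array the high one, with both controls between them and 0.17 apart. The log2 difference was -0.43 for Senexin B minus DMSO, or 1.35-fold lower, and 9.17% of expressed genes were at least as far apart. For shCDK8 minus pLKO.1 it was 0.40, or 1.32-fold higher, and 10.3% of expressed genes were at least as far apart. Among Plau, Plat, Plaur and Serpinb2, Plat had the widest range over the arrays, 1.001 on the log2 scale, just ahead of Plau at 0.96.

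Plaur, the urokinase receptor gene, had log2 levels of 11.02 in DMSO, 10.50 in Senexin B, 10.81 in pLKO.1 and 10.94 in shCDK8. The Senexin B array was lowest by 0.31, and the other arrays lay within 0.21 of each other. Plaur was 1.43-fold lower with Senexin B than with DMSO, a log2 difference of -0.52, and 5.49% of expressed genes were at least as far apart. Of that difference 0.21 also separated the controls, and against the pLKO.1 array the Senexin B value was lower by -0.31. In shCDK8 it was 0.12 above pLKO.1, less than the gap between the controls, and -0.08 against DMSO, so its order relative to a control depended on which control was used.

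Serpinb2, the inhibitor gene, had log2 levels of 4.79 in DMSO, 4.44 in Senexin B, 4.44 in pLKO.1 and 4.44 in shCDK8. All 4 were under the expression limit, and the DMSO array was the single one apart. Its differences of -0.36 for Senexin B minus DMSO and -0.35 for pLKO.1 minus DMSO are the same step read against the same array, and shCDK8 minus pLKO.1 was -0.00115. A further probe set is annotated to both Serpinb2 and Serpinb10. It stood at 4.65, 4.88, 4.56 and 4.64 on the arrays in the same order, also under the limit, and there Senexin B was 0.23 above DMSO. At this signal neither direction can be read as a change in Serpinb2.

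**Figure D1:**
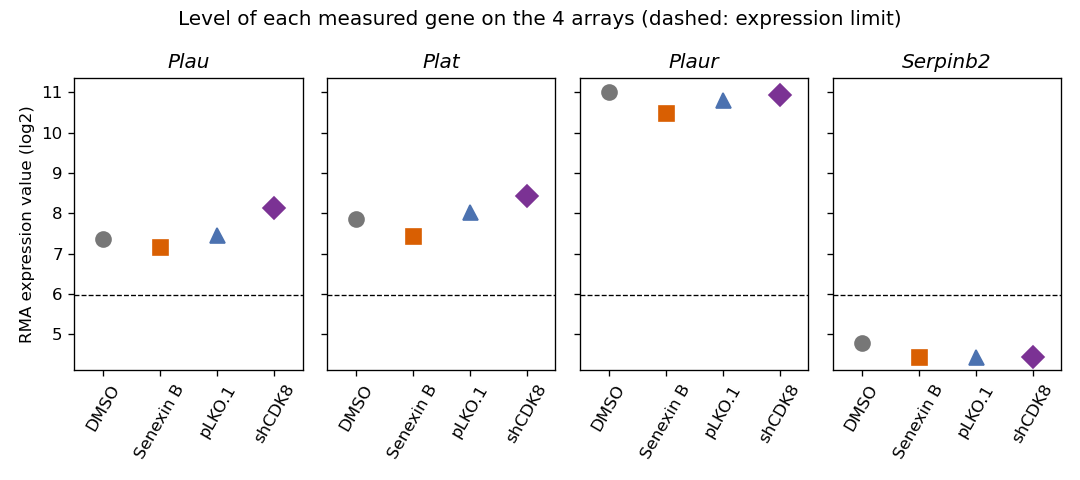
Log2 RMA expression value (vertical axis) of Plau, Plat, Plaur and Serpinb2 on the DMSO, Senexin B, pLKO.1 and shCDK8 arrays (horizontal axis), 1 point per array with no error bars since each group has 1 array; the dashed line is the expression limit of 5.98. Plau and Plat are highest in shCDK8 at 8.12 and 8.44, Plaur is lowest in Senexin B at 10.50, and the Serpinb2 points all lie under the line; heights of different genes come from different probe sets and are not comparable.

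As a group the 4 measured genes were all below 0 for Senexin B minus DMSO, with a median of -0.39 beside -0.03 over expressed genes, of which 55.1% were below 0. Serpinb2, under the limit, is counted here, and without it the median of the 3 expressed genes was -0.43. None of the 4 was 2-fold apart there, against 0.939% of expressed genes, and none was 1.5-fold apart, against 4%. For shCDK8 minus pLKO.1 3 of the 4 were above 0, with a median of 0.26 beside 0.0038 over expressed genes, of which 50.8% were above 0. Without Serpinb2 that median was 0.40. None was 2-fold apart, against 0.518% of expressed genes, and Plau alone was at least 1.5-fold higher, against 1.67%. Between the controls 2 were above 0 and 2 below, beside 44.3% of expressed genes above 0, and none was 1.5-fold apart, against 1.04%.

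Plau, Plat and Plaur were each lower with Senexin B than with DMSO and higher in shCDK8 than in pLKO.1, a combination found in 26.7% of expressed genes. The gap between the comparisons, the shCDK8 difference minus the Senexin B difference, was 0.88 for Plau, 0.83 for Plat and 0.64 for Plaur. A gap of at least 1.5-fold in either direction was found in 9.62% of expressed genes. A gap of at least 1.5-fold in that direction, with the signs opposed in that way, was found in 4.1% of expressed genes. Since the genes were chosen with earlier results of these data known, these shares are a description only. Replacing each control by the other left Plau at -0.29 with Senexin B and 0.76 in shCDK8, and Plat at -0.60 and 0.57. Plaur was then at -0.31 and -0.08 and no longer opposed in sign.

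The secreted metalloproteinase genes, whose products include enzymes that plasmin can activate, differed from this. Mmp3, Mmp9, Mmp10 and Mmp13 were all lower in both comparisons. Their Senexin B differences were -0.74, -0.59, -2.17 and -1.52, and their shCDK8 differences were -2.59, -1.06, -1.18 and -3.17. All 4 were thus at least 2-fold lower in shCDK8, where 0.322% of expressed genes were, while Plau and Plat were above their control on the same array. Between the controls the metalloproteinases differed by 0.70, -0.21, -0.22 and 0.47 in the same order. Against DMSO all 4 were also at least 2-fold lower in shCDK8, with Mmp3 at -1.89. The arrays allow no test of the contrast between these gene groups.

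**Figure D2:**
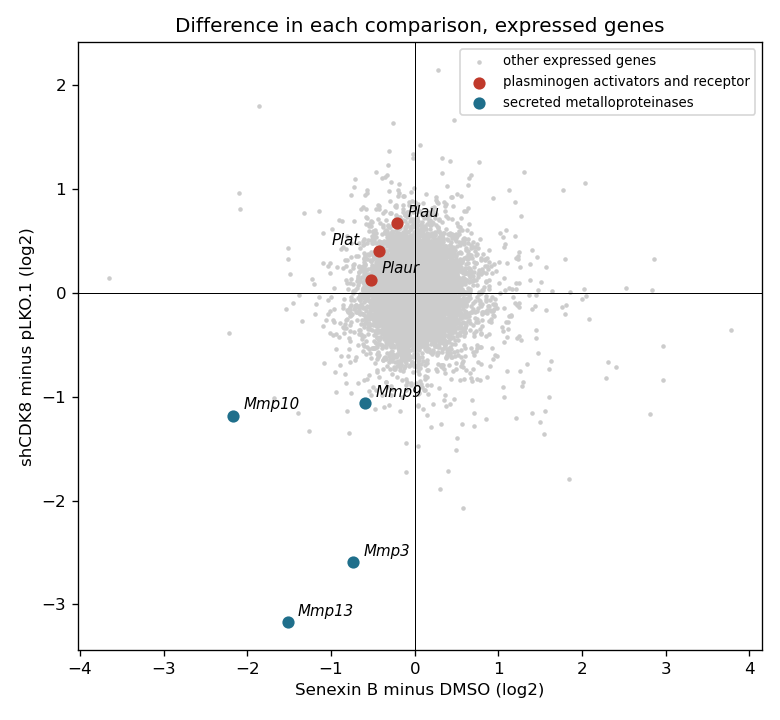
Difference for Senexin B minus DMSO (horizontal axis, log2) against that for shCDK8 minus pLKO.1 (vertical axis, log2), 1 point per expressed gene (14272 in all), with no error since each group has 1 array. Plau, Plat and Plaur lie in the upper left, at up to 0.67 on the vertical axis, and Mmp3, Mmp9, Mmp10 and Mmp13 in the lower left, down to -3.17.

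Among expressed genes the profile over 4 arrays nearest to Plau, after each gene's mean was removed, was that of Dmp1, a gene for a mineralized-matrix protein, at a Euclidean distance of 0.021. Tnfrsf26, a gene of the tumour necrosis factor receptor family, followed at 0.027, and Mttp, the microsomal triglyceride transfer protein gene, at 0.068. Nearest to Plat were Pon3, a paraoxonase gene, at 0.016, Mecom, a zinc-finger transcription factor gene, at 0.052, and Mctp1 at 0.057. Tnfrsf26, for example, stood at 9.25, 9.04, 9.36 and 10.04 in DMSO, Senexin B, pLKO.1 and shCDK8. With 4 arrays such likeness is easily met: 45 of 12767 genes lay within 0.2 of Plau and 48 within 0.2 of Plat. Plaur and Serpinb2 ranged by less than 1.5-fold over the arrays, and no likeness was sought for them.

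The other genes of the system differed less from their controls than the 1.5-fold threshold. Of 21 listed besides those above, 17 were measured and 13 expressed, and none was 1.5-fold apart in either comparison, against 4% of expressed genes with Senexin B and 3.52% in shCDK8. Their median for Senexin B minus DMSO was 0.02, beside -0.03 over expressed genes, with 7 above 0 and 6 below. For shCDK8 minus pLKO.1 it was 0.05, beside 0.0038, with 10 above 0 and 3 below. Of all expressed genes 44.8% and 50.8% were above 0 in these comparisons. Plg and F12 counted as expressed through the Senexin B array only. With values raised to the limit the shCDK8 differences of Plg, F12 and Cdcp1, which are among the 10, were 0. Nothing is read from these counts.

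Plg, which encodes plasminogen itself, had log2 levels of 5.61 in DMSO, 5.99 in Senexin B, 5.59 in pLKO.1 and 5.75 in shCDK8. It thus reached the expression limit on the Senexin B array only, and its difference of 0.37 shrank to 0.0095 when values under the limit were raised to it. Among proteins that bind plasminogen at the cell surface, S100a10 and Anxa2, the subunits of one complex, were at -0.17 and -0.23 with Senexin B and at 0.13 and -0.04 in shCDK8. Plgrkt, a membrane receptor for plasminogen, was at -0.14 with Senexin B and 0.34 in shCDK8, from 7.69 in pLKO.1 to 8.03. In all, 4 of the 13 expressed genes, Plgrkt, S100a10, F3 and Cdcp1, were lower with Senexin B and higher in shCDK8. That share is near the 26.7% of all expressed genes. Cdcp1 reached the limit on the DMSO array only, so its signs cannot be read.

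Lrp1, the endocytic receptor that clears activator-inhibitor complexes, was at -0.09 with Senexin B and -0.29 in shCDK8. Mrc2, a collagen receptor that associates with the urokinase receptor, was at 0.21 and 0.03. Vtn, the vitronectin gene, whose product the urokinase receptor binds, was at 0.02 and -0.22. Of the plasmin inhibitors Serpinf2, the antiplasmin gene, was at 0.05 and 0.04, and A2m, a broad protease trap, at 0.38 and 0.24. These receptors and inhibitors did not share one direction.

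F3, the tissue factor gene, was at -0.17 and 0.05 and differed more between the controls, at -0.49. The protease genes F12 and Hpn, whose products can activate pro-urokinase or plasminogen, were at 0.37 and 6e-05 for F12 and at 0.07 and 0.23 for Hpn. With values raised to the limit the F12 difference for Senexin B was 0.031. Cdcp1, a membrane protein that plasmin can cleave, was at -0.14 and 0.07. With values raised to the limit the Cdcp1 differences were -0.0052 and 0. Serpini1, Serpina5, Lrp2 and St14 were under the expression limit on all arrays. Serpini1, the neuroserpin gene, whose product inhibits tissue plasminogen activator, read 4.58 in pLKO.1 and 5.13 in shCDK8 there. Eno1, Cpb2 and Klkb1 were among those not analysed here.

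**Figure D3:**
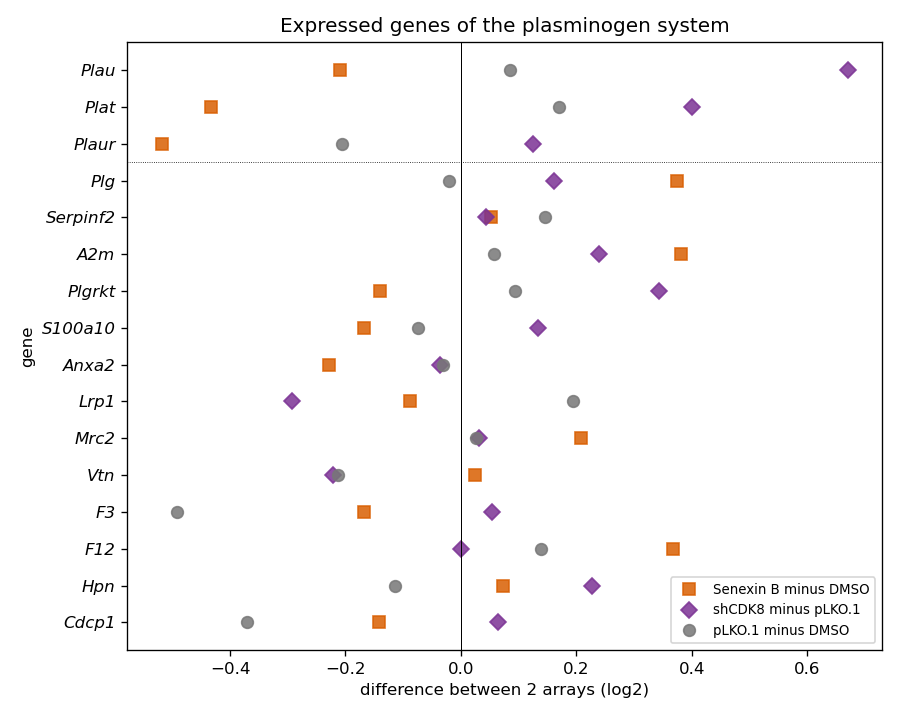
Difference between 2 arrays (horizontal axis, log2) for the expressed genes of the plasminogen system (rows), with squares for Senexin B minus DMSO, diamonds for shCDK8 minus pLKO.1 and circles for pLKO.1 minus DMSO, and no error bars since each group has 1 array. Plau at 0.67 in shCDK8 and Plaur at -0.52 with Senexin B are the outermost points of those comparisons, and the genes under the dotted line stay between -0.29 and 0.38 in them.

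The serpin family was set beside Serpinb2. Besides it 53 genes with a Serpin symbol were measured and 12 expressed. With Senexin B 9 of the 12 were above 0, against 44.8% of expressed genes, 4 at least 1.5-fold higher, against 2.35%, and 2 at least 2-fold higher, against 0.687%. Among these Serpinb1a and Serpinb9f reached the expression limit on the Senexin B array only and so counted as expressed through the array where they were high. With values raised to the limit the 1.5-fold count was 2 and the 2-fold count 1, so nothing is read from these counts about the family. In shCDK8 6 were above 0 and 6 below, and none was 1.5-fold apart. The largest differences there were 0.38 for Serpinb6b, 0.32 for Serpinb9b, -0.27 for Serpina11 and 0.26 for Serpina6. The 4 at least 1.5-fold higher with Senexin B belong to the Serpinb clade. They are neighbours on chromosome 13 in the RefSeq annotation of GRCm38.p6, whereas Serpinb2 lies in a Serpinb cluster on chromosome 1.

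Of the chromosome 13 genes Serpinb9b had log2 levels of 6.85 in DMSO, 8.64 in Senexin B, 6.79 in pLKO.1 and 7.12 in shCDK8. The Senexin B array stood apart by 1.53 from the next, and Senexin B minus DMSO was 1.79. Serpinb9, which encodes an inhibitor of granzyme B, was at 7.76, 8.36, 7.64 and 7.46 in the same order, a difference of 0.60 for Senexin B. Serpinb1a, an inhibitor of neutrophil elastase, was at 4.98, 6.43, 5.38 and 5.36, a difference of 1.45 that became 0.46 with values raised to the limit. Serpinb9f, at 0.81, became 0.11 in the same way.

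In all, 15 Serpinb genes of chromosome 13 were measured. With Senexin B 14 were above 0, with a median of 0.60, and in shCDK8 8 were, with a median of 0.012. The share above 0 with Senexin B was 44.8% over expressed genes, a set to which most of the 15 do not belong. Only 6 of the 15 were expressed, Serpinb1a and Serpinb9f through the Senexin B array alone. As with Serpinb2 no direction can be read for those under the limit on all arrays. The group was chosen after its values were seen, so nothing is read from these counts. On chromosome 1, 10 Serpinb genes including Serpinb2 were measured and 0 expressed. There 7 were above 0 with Senexin B and 6 in shCDK8, with medians of 0.19 and 0.051. The chromosome 13 genes are close paralogs whose probe sets may share signal, and the probe sequences were not used here.

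**Figure D4:**
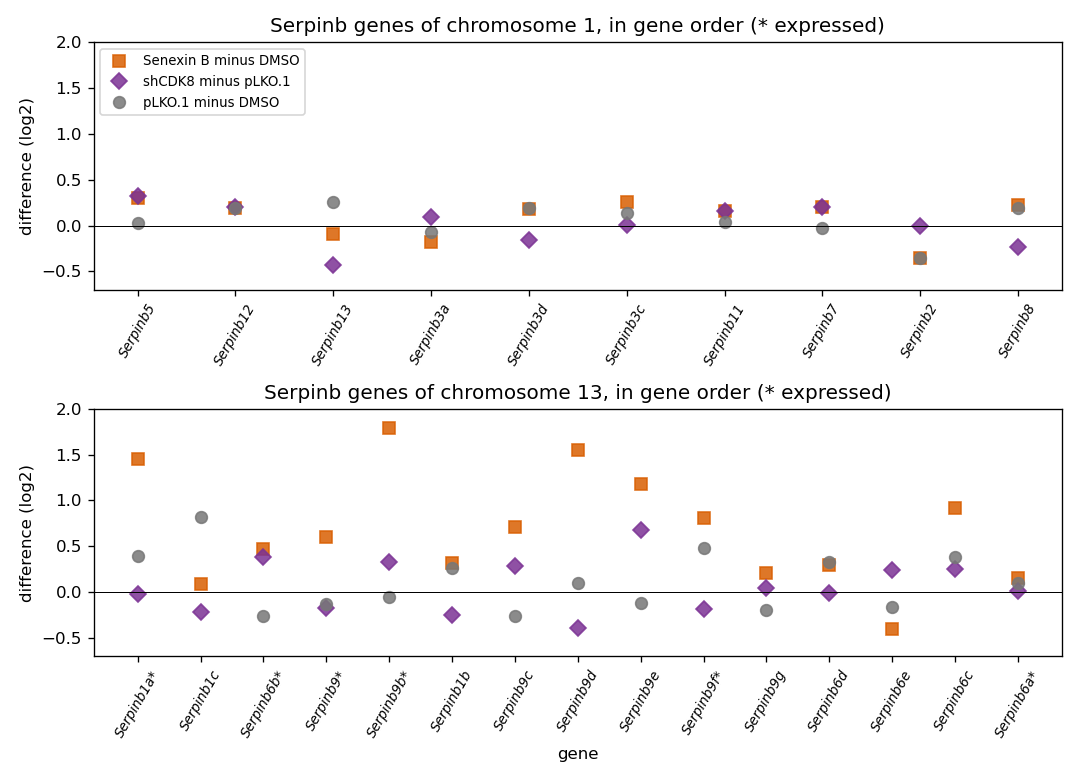
Difference between 2 arrays (vertical axis, log2) for the measured Serpinb genes of chromosome 1 (upper panel, with Serpinb2) and chromosome 13 (lower panel) in gene order along the RefSeq annotation (horizontal axis), with squares for Senexin B minus DMSO, diamonds for shCDK8 minus pLKO.1, circles for pLKO.1 minus DMSO, stars for expressed genes, and no error bars. The chromosome 13 squares reach 1.79 at Serpinb9b and 14 of 15 are above 0, while those of chromosome 1 stay between -0.36 and 0.30. Only 6 of the chromosome 13 genes are expressed, and that group was chosen after its values were seen.

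Genes around the urokinase receptor were read next. Of the 10 listed partners, which are mostly integrin chains that the receptor signals through, 6 were expressed. With Senexin B 5 of the 6 were below 0, beside 55.1% of expressed genes, with a median of -0.23, and 1 was at least 1.5-fold lower, against 1.65% of expressed genes. That gene was Itgav, the integrin alpha V chain, at 10.46 in DMSO, 9.87 in Senexin B, 10.61 in pLKO.1 and 10.73 in shCDK8, a difference of -0.59. Itga3 was at -0.49 and Itga5 at -0.30, while Itgb3 was at 0.18. In shCDK8 4 of the 6 were below 0, as were 49.1% of expressed genes, with a median of -0.15. Itgb1 was at -0.32, Itga5 at -0.25 and Cav1, the caveolin gene, at -0.16, whereas Itga3 was at 0.23.

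The LY6/uPAR genes share the receptor's three-finger fold. All 5 expressed ones were above 0 with Senexin B, against 44.8% of expressed genes, with a median of 0.20 beside -0.03 over expressed genes. Of these 2 were at least 2-fold higher, against 0.687%, or 1 with values raised to the limit. Between the controls 4 of the 5 were above 0, beside 44.3% of expressed genes, with a median of 0.23. No shift of the list with Senexin B is therefore read. Lynx1, whose product modulates nicotinic acetylcholine receptors, stood at 7.38 in DMSO, 8.43 in Senexin B, 7.69 in pLKO.1 and 8.23 in shCDK8, a Senexin B difference of 1.05 and a shCDK8 difference of 0.54. The controls differed by 0.31 for Lynx1. Slurp1, a secreted member, was at 1.13 with Senexin B, but it reached the limit on the Senexin B array only, differed by 0.58 between the controls and was at 0.43 with values raised to the limit. Lypd3 was at 0.20 and 0.14 in the comparisons, Ly6e at 0.07 and -0.18, and Ly6k at 0.06 and 0.19.

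AP-1 and Ets proteins are transcription factors known to act on the urokinase and urokinase receptor genes. All 11 measured of the 12 listed were expressed, and the median was -0.05 with Senexin B and -0.01 in shCDK8. Ets2 alone was 1.5-fold apart, at 9.15 in DMSO, 9.90 in Senexin B, 9.28 in pLKO.1 and 9.03 in shCDK8, a difference of 0.75 for Senexin B and -0.25 for shCDK8. Of all expressed genes 4% were that far apart with Senexin B and 3.52% in shCDK8. Etv1 was at 0.35 and -0.34, Jund at -0.34 and -0.23, and Fosb at -0.25 and 0.22. The controls differed by 0.33 for Etv1. Against the other control its differences were 0.02 for Senexin B and -0.0028 for shCDK8. Fosb and Junb, 2 of the 11, were lower with Senexin B and higher in shCDK8, beside 26.7% of all expressed genes.

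Of 11 listed substrates of plasmin 7 were expressed, with medians of 0.17 for Senexin B and 0.21 for shCDK8. Beside them the medians over expressed genes were -0.03 and 0.0038. The Senexin B median is the value of Igfbp3, which reached the limit on the Senexin B array only. No shift of the list is read from it. Thbs1, the thrombospondin gene, was at 9.47 in DMSO, 10.21 in Senexin B, 9.39 in pLKO.1 and 9.68 in shCDK8, and was the 1 gene at least 1.5-fold higher with Senexin B, at 0.74, against 2.35% of expressed genes. Fn1, the fibronectin gene, was at 0.47 with Senexin B and 0.24 in shCDK8, but differed by 0.58 between the controls. Lamc1, a laminin chain, was at -0.28 and 0.21, Lama5 at 0.23 for Senexin B, and Igfbp3 at -0.28 for shCDK8. Igfbp3 was under the limit in both pLKO.1 and shCDK8, and that difference was 0 with values raised to the limit. The fibrinogen chain genes Fga, Fgb and Fgg and the growth factor gene Hgf were under the limit on all arrays.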

How the data were processed

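Total RNA of 4 cultures was measured on Affymetrix mouse gene arrays, 1 per group. The authors deposited 1 log2 value per probe set and array, made with RMA and Affymetrix Expression Console, per the submitters' processing notes. The sources used here give no version, setting or genome build. RMA equalizes the arrays' distributions, which removes any shift common to all genes, and compresses differences near background.

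Of 41345 probe sets 23521 had 1 symbol in the platform annotation, 1814 several and 16010 none. Of the 23521, 23328 matched the RefSeq gene table of GRCm38.p6. For a gene with several probe sets (1082 genes) the one with the highest mean was used. A gene was expressed where its highest value reached the 40th percentile (5.98), which left 14272 genes.

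Differences of log2 values were computed with pandas 2.3.3, numpy 2.4.6 and Python 3.11.15, with no test, since each group had 1 array. Calls were made at 2-fold and 1.5-fold. Only the 2-fold call was tried on simulated differences, and the quantile normalization on a small example. The choice of probe sets, the filter and the list summaries were not tested in this way. The members and lists were chosen with earlier results of these data known. The genes named are all members, all measured genes of the plasminogen system list, per other list and comparison up to 4 expressed genes with the largest absolute difference, and for Plau and Plat the 3 nearest profiles, predicted loci and small RNAs left out. Cdk8, the secreted metalloproteinases and cell type markers are named as well. The chromosome 13 Serpinb genes as a group, and the fibrinogen and Hgf genes, were chosen after their values were seen. Alternatives were a further quantile normalization, a lowess trend (span 0.3) removed, probe sets of a gene averaged, values raised to the limit, no filter or one at the 60th percentile, thresholds of 1.5-fold and 3-fold, list means, and the other control as reference.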

Additional observations from a re-analysis of the deposited data

Results flagged for a closer look

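For 3 genes the differences pointed in opposite directions in the Senexin B and the shCDK8 comparison and lay at least 1.5-fold apart from each other. The shCDK8 difference minus the Senexin B difference was 0.88 for Plau, 0.83 for Plat and 0.64 for Plaur on the log2 scale. With 1 array per group this difference was not tested. A gap of that size in either direction was found in 9.62% of expressed genes, and one opposed in the same way as these genes in 4.1%. For Plaur the shCDK8 difference of 0.12 was smaller in size than the control difference of -0.21. Against DMSO it was -0.08, so the opposition for Plaur depended on the control used. For Plau the Senexin B difference was -0.21, and 36.9% of expressed genes were at least as far apart.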

How the results depend on the processing

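Shifts of 0.1 or more (log2) and counts changed by over 1.5 times were taken as moves. Of 56 values for Plau, Plat, Plaur and Serpinb2 under the alternatives 48 stayed within that margin and 8 moved, 6 of them under the other control as reference and 2, both for Serpinb2, with values raised to the limit. Averaging probe sets could not move any of these genes, since each had 1. Raising values to the limit could not move Plau, Plat or Plaur, which lay above it on every array. The 48 thus include values that were fixed in advance. Under the alternatives that kept the reference, Plau stayed between 0.65 and 0.67 in shCDK8, Plat between 0.39 and 0.40, and Plaur with Senexin B between -0.52 and -0.44. With values raised to the limit Serpinb2 showed no difference, and the median of the 4 genes between the controls was 0.043. At 1.5-fold 1 of them was called in shCDK8. The Senexin B median of the wider plasminogen list was -0.15 with the filter at the 60th percentile and 0.19 against pLKO.1. For the serpin family with Senexin B the mean was 0.46, and the number past the threshold was 1 with values raised to the limit, with the filter at the 60th percentile and at 3-fold, and 4 with no filter and at 1.5-fold. No paired analysis was possible because each group had 1 array. Leaving out an array was not possible for the same reason.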
